A study of Mus musculus with 6 samples.

Results

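The RGS genes encode the regulators of G-protein signalling, and 10 of them were described here across Col6a1+ and Col6a1- cancer-associated fibroblasts (CAFs) of mouse colonic adenomas. The 10 were Rgs2, Rgs3, Rgs4, Rgs5 and Rgs16 of the R4 subfamily, Rgs10, Rgs12 and Rgs14 of the R12 subfamily, and Rgs17 and Rgs19 of the RZ subfamily. They were found by gene name, 1 row each, among the 49548 genes of the deposited table, of which 26402 had at least 1 normalised count over the libraries and entered the test. All 10 were among the genes tested, and each had a mean of at least 10 normalised counts over the 6 libraries. The genes were chosen for description with their levels in the same libraries known. Their differences between the 2 groups are therefore a description, given with errors and with no p-value for any single member. Which of them passed the test is stated beside the shares of all genes and again with the alternative settings, and nothing is read from it. There was no fixed level at which a gene became a member, since Rgs17 had the lowest mean of the 10 at 12.3 normalised counts and the RGS gene Rgs1, which is not among the 10, had a mean of 26.0.

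A heterotrimeric G protein signals while its G alpha subunit holds GTP and is apart from the G beta-gamma dimer. RGS proteins bind the active G alpha subunit through their RGS domain and speed up its GTP hydrolysis, which ends the signal of the receptor. R4 proteins are small and act mainly on the Gi and Gq classes, R12 proteins favour Gi, RZ proteins act on Gi and Gz, and R7 proteins work in a complex with the beta subunit Gnb5. In blood vessels the family restrains receptors that contract the wall, and Rgs5 is widely used as a marker of pericytes, the mural cells of small vessels.

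The 6 libraries came from adenomas that azoxymethane (AOM, a carcinogen) and dextran sodium sulfate (DSS, an agent that injures the colon) had induced in Col6a1-mTmG mice. Both groups carried the same alleles, Col6a1Cre and the Rosa26 mTmG reporter, in which Cre replaces membrane Tomato with membrane GFP, and both received the same AOM/DSS treatment. The labels mark all 6 libraries as WT and give no age. Cells were sorted after removal of those with CD45, CD31, Ter119 or EpCAM, and GFP+ cells made up the Col6a1+ CAFs (3 libraries) and Tomato+ cells the Col6a1- CAFs (3 libraries). The study counts 3 samples, each a pool of tumors from several mice. Whether the GFP+ and Tomato+ libraries of the same number share a pool is not stated, and the main test did not pair them. Col6a1Cre does not mark a single cell type, because by the study's account it is active mainly in PDGFRa-high fibroblasts and in perivascular cells, so the 2 groups differ in cell types as well as in the reporter. RNA was read from its 3′ end, and values are the normalised counts that the authors deposited on a log2 scale. No spread between animals can be read from pools, and where nothing ties libraries to separate cultures or animals, a p-value measures only the spread between these libraries.

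The normalised counts of a library summed to between 3039152 and 3425249. Replicate 1 of the Col6a1+ CAFs stood apart with 14530 genes detected, against 18770 to 20511 in the other 5 libraries, and values without it are given for the genes it moved most. Col6a1 itself was at 861, 1287 and 1941 normalised counts in the Col6a1+ libraries and at 182, 321 and 102 in the Col6a1- libraries, with a log2 fold change of 2.82 (SE 0.44, limma adjusted p = 0.00613, but 0.0983 when the replicate number was a block). With the block and a mean of at least 10 counts its limma adjusted p was 0.00557. All 6 pan-fibroblast markers were detected in every library, with summed levels of 37468 to 41177 in Col6a1+ and 6799 to 13785 in Col6a1- CAFs. Of these 6, 4 passed the test as higher in Col6a1+ CAFs and 0 as lower, beside 2.66% and 1.96% of all genes tested. The 9 pericyte markers summed to 12181 to 49275 in Col6a1+ and 845 to 1633 in Col6a1- CAFs. All 9 passed the test as higher in Col6a1+ CAFs, beside 2.66% of all genes tested (1.96% passed as lower). Of 8 smooth muscle markers 6 passed as higher, with sums of 12621 to 25196 and 504 to 2483. The sort excluded EpCAM, yet the 8 epithelial markers were above 0 in every library and summed to 4948 to 5336 in Col6a1+ and 18155 to 27801 in Col6a1- CAFs, and 6 of the 8 passed the test as lower in Col6a1+ CAFs. When the replicate number was a block, 0 of the 27 markers that passed over all marker lists did so, at adjusted p of 0.0612 to 0.197, and all 27 had an unadjusted p under 0.05. With the block and a mean of at least 10 counts all 27 passed.

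Rgs5 and Rgs4 were the members with the largest folds in the direction of Col6a1+ CAFs. Rgs5, which acts on Gi and Gq, was at 42173, 29648 and 31282 normalised counts in the Col6a1+ libraries and at 509, 700 and 297 in the Col6a1- libraries. The lowest Col6a1+ library lay far above the highest Col6a1- library, and the means were 34368 ± 6809 and 502 ± 202 (SD, n = 3 and n = 3), a ratio of 68.5. Its log2 fold change was 6.16 (SE 0.35) and lay between 5.83 and 6.44 when each library in turn was left out. Rgs5 alone made up 1.27%, 0.935% and 0.913% of all normalised counts in the Col6a1+ libraries. In the Col6a1- libraries its share was 0.0167%, 0.0213% and 0.00919%. In these bulk libraries, fewer cells of a type and less RNA per cell cannot be told apart.

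Rgs4, also a regulator of Gi and Gq, was at 1382, 830 and 1800 normalised counts in Col6a1+ CAFs and at 24, 17 and 16 in Col6a1- CAFs. Its means were 1337 ± 487 and 19.0 ± 4.36 (SD, n = 3 and n = 3), a ratio of 70.4, and the log2 fold change was 6.02 (SE 0.38). Rgs5 and Rgs4 therefore differed between the groups by nearly the same fold, at levels far from each other. Per 100 counts of Rgs5 there were 3.28, 2.80 and 5.75 counts of Rgs4 in the Col6a1+ libraries and 4.72, 2.43 and 5.39 in the Col6a1- libraries. The 2 sets of ratios overlapped.

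Rgs16, a further R4 regulator of Gi and Gq, was at 2975, 1426 and 1648 normalised counts in Col6a1+ CAFs and at 204, 193 and 228 in Col6a1- CAFs. The groups did not overlap, the Col6a1- libraries were close to one another, and replicate 1 of the Col6a1+ CAFs was the highest. The means were 2016 ± 838 and 208 ± 17.9 (SD, n = 3 and n = 3), a ratio of 9.68, with a log2 fold change of 3.20 (SE 0.32) that was 2.88 without that library. Rgs2, which restrains Gq signalling in vessels and is known for its part in blood pressure control, was at 1322, 2317 and 1313 normalised counts in Col6a1+ CAFs and at 743, 744 and 472 in Col6a1- CAFs. Its groups did not overlap either, but the distance between them was smaller than for Rgs5, Rgs4 and Rgs16. The means were 1651 ± 577 and 653 ± 157 (SD, n = 3 and n = 3), a ratio of 2.53, with a log2 fold change of 1.31 (SE 0.33).

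Rgs3, the last R4 member, which acts on Gi and Gq, was at 23, 39 and 40 normalised counts in Col6a1+ CAFs and at 19, 14 and 21 in Col6a1- CAFs. The lowest Col6a1+ library was just above the highest Col6a1- library, at counts so low that the log2 fold change of 0.86 had an SE of 0.61. In Col6a1- CAFs, by mean, the R4 members therefore ran from Rgs2 (653) and Rgs5 (502) through Rgs16 (208) to Rgs4 (19.0) and Rgs3 (18.0), and the libraries of Rgs2 and Rgs5 overlapped, as did those of Rgs4 and Rgs3. In Col6a1+ CAFs, Rgs5 stood above all others, Rgs16, Rgs2 and Rgs4 had overlapping libraries, and Rgs3 was the lowest. These orders are of 3′ counts, which a transcript's length does not scale.

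**Figure D1:**
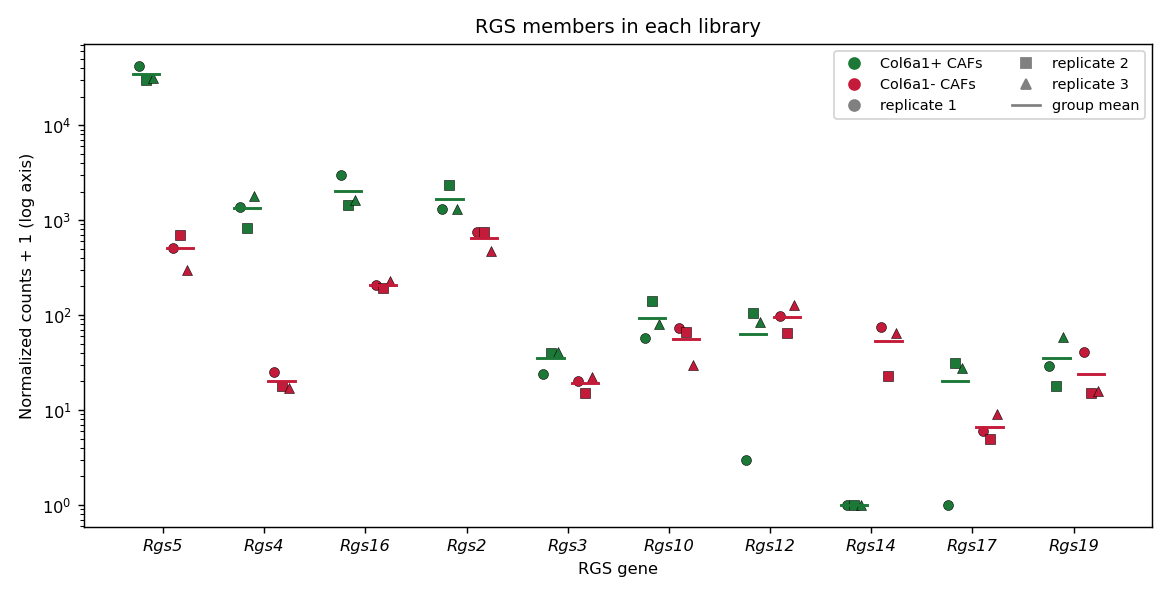
Normalised counts of the 10 RGS members in each library, on a log scale of the count plus 1. Each point is 1 library of the Col6a1+ or Col6a1- CAFs and each bar is the group mean. Rgs5, Rgs4, Rgs16, Rgs2 and, by a small margin at low counts, Rgs3 lie higher in all 3 Col6a1+ libraries. Rgs14 is at 0 in all 3 of them, and Rgs10, Rgs12, Rgs17 and Rgs19 overlap.

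Rgs5, Rgs4, Rgs16 and Rgs2 all lie on chromosome 1, which carries 12 of the RGS genes listed and none of the other members. On the mm10 coordinates of the table Rgs5 (ENSMUSG00000026678) spans chr1:169655501-169695813 on the plus strand and Rgs4 (ENSMUSG00000038530) chr1:169741477-169747642 on the minus strand. The pair point their 3′ ends at each other across 45.7 kb. Rgs16 (ENSMUSG00000026475) spans chr1:153740349-153745468 on the plus strand, and Rgs2 (ENSMUSG00000026360) chr1:143999338-144004161 on the minus strand, at the end of a cluster with Rgs13, Rgs1, Rgs21 and Rgs18 that spans 776 kb. No gene with counts overlapped any of the 4. A RefSeq table held promoters for 9 of the 10 members, 13 in all, each with 250 bases before and 50 after the start. The 250 bases before the start are shown for these 4 genes because they were the members that passed the test as higher in Col6a1+ CAFs. They are read 5′ to 3′ on the strand of each gene (GRCm38.p6). Capitals mark matches to CCAAT, to TATAAA or to GGGCGG on either strand, which read ATTGG and CCGCCC where they lie on the opposite strand.
Rgs5, chr1:169655251-169655500, plus strand: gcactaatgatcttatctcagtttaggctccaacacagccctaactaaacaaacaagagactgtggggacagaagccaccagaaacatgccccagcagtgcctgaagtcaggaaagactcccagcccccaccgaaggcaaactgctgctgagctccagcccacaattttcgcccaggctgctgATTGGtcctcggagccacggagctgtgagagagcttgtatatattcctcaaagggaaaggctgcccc
Rgs4, chr1:169747643-169747892, minus strand: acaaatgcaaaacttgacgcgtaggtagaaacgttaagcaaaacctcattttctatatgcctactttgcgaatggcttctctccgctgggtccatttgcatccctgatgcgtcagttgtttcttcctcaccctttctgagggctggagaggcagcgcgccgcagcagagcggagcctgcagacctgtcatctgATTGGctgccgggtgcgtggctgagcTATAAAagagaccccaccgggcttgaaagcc
Rgs16, chr1:153740103-153740352, plus strand: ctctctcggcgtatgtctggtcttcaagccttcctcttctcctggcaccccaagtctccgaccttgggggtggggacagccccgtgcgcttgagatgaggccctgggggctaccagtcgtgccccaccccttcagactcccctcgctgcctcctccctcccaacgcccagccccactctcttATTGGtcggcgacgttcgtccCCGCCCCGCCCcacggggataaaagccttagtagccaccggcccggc
Rgs2, chr1:144004150-144004399, minus strand: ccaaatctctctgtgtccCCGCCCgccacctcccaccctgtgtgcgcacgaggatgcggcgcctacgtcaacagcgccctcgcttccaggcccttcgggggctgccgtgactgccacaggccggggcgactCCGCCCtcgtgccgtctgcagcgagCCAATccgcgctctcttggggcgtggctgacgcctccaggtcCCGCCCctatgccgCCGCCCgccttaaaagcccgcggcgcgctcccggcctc

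Each of the 4 promoters held 1 CCAAT, the first base of which was 67 bases before the start in Rgs5, 57 in Rgs4, 68 in Rgs16 and 94 in Rgs2. None of the other 9 member promoters held it, and 37.4% of all 32851 promoters of the same 300 bases did. Those without it include Rgs3, whose Col6a1+ libraries were also all above its Col6a1- libraries. The 13 member promoters belong to 9 members, so some share a gene. The 4 genes were chosen by passing the test in these same libraries and CCAAT was 1 of several motifs searched, so nothing is read from this split. Rgs4 also held TATAAA 31 bases before its start, a match found in 13.6% of all promoters and in 3 of the 13 member promoters. GGGCGG was matched at 2 places in Rgs16, which overlap by 1 base, and at 4 places in Rgs2, and was in 35.7% of all promoters and in 9 of the 13. The Rgs5 promoter held neither TATAAA nor GGGCGG. A further 5 motifs were searched on both strands and had no match in any of the 4 promoters. They were the CArG box (1.63% of all promoters), TGGGAA (25.6%), ACGTG (19.6%), TGACGTCA (1.79%) and TGANTCA (7.81%). These are matches of letters in a window and say nothing of a factor.

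Rgs14 was the member with the opposite pattern. It is a scaffold of the R12 subfamily that binds Gi through an RGS domain and a GoLoco motif and also binds Ras-like proteins. Rgs14 (ENSMUSG00000052087, chr13:55369732-55384687) was at 0 in all 3 Col6a1+ libraries and at 73, 22 and 63 normalised counts in the Col6a1- libraries. The mean in Col6a1- CAFs was 52.7 ± 27.0 (SD, n = 3), so that Rgs14, set against a floor of 3 counts per library, was lower by at least 17.6-fold in the Col6a1+ libraries. The epithelial markers, with the sums given above, and the 9 immune markers, which summed to 34 to 70 in Col6a1+ and 268 to 454 in Col6a1- CAFs, were on the same side as Rgs14. Of the immune markers S100a8 passed the test as lower in Col6a1+ CAFs, and Ptprc, which encodes CD45, was at 0, 2 and 0 against 7, 8 and 3. S100a8 carried much of the immune sum, and the other 8 markers summed to 38, 17 and 41 against 57, 67 and 119. Within the Col6a1- CAFs, replicate 2 had the lowest Rgs14 and the highest epithelial and immune sums, while the other 8 immune markers summed highest in replicate 3. Nothing is read from an order over 3 libraries. The part of these cells in the level of Rgs14 was not tested.

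The other R12 members did not separate the groups. Rgs10, a small Gi regulator known from immune cells and microglia, was at 56, 139 and 79 normalised counts in Col6a1+ CAFs and at 72, 65 and 29 in Col6a1- CAFs, and its log2 fold change was 0.71 (SE 0.52). Rgs12, a large scaffold with RGS, PDZ and GoLoco domains, was at 2, 103 and 83 against 96, 63 and 126. Replicate 1 of the Col6a1+ CAFs was far below the rest, and the log2 fold change of Rgs12 was -1.64 (SE 1.12) with that library and 0.02 without it. For both genes the groups overlapped.

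The RZ members were low in every library. Rgs17, a regulator of Gi and Gz, was at 0, 30 and 27 normalised counts in Col6a1+ CAFs and at 5, 4 and 8 in Col6a1- CAFs. Replicates 2 and 3 of the Col6a1+ CAFs were above all Col6a1- libraries and replicate 1 was below them, so that the log2 fold change was 0.56 (SE 1.34) over all libraries and 2.19 without replicate 1. Rgs19, also called GAIP, a Gi regulator that binds membranes through a palmitoylated cysteine string, was at 28, 17 and 57 against 40, 14 and 15. Its groups overlapped, with a log2 fold change of 0.54 (SE 0.71).

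Of the 10 members, 4 passed the limma test as higher in Col6a1+ CAFs (Rgs5, Rgs4, Rgs16 and Rgs2), 1 as lower (Rgs14) and 5 did not pass. Over all 26402 genes tested 2.66% passed as higher, 1.96% as lower and 4.62% in either direction. The groups did not overlap for 6 members, 5 higher and 1 lower, and for 19.5% of all genes, 7.91% higher and 11.6% lower. The median log2 fold change was 0.79 over the members and -0.27 over all genes. Because these values chose the members, nothing is read from the counts. When the replicate number was a block 0 of the 10 passed and 5 had an unadjusted p under 0.05, and with the block and a mean of at least 10 counts all 5 did. Leaving out each library in turn kept Rgs5 and Rgs4 each time and Rgs2 never. Rgs16 was lost without replicate 1 of the Col6a1- CAFs, and Rgs14 without replicate 1 or replicate 3 of them. This left 2 to 3 higher and 0 to 1 lower. These fits used the libraries that had chosen the members, so a call kept or lost supports no member over another.

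**Figure D2:**
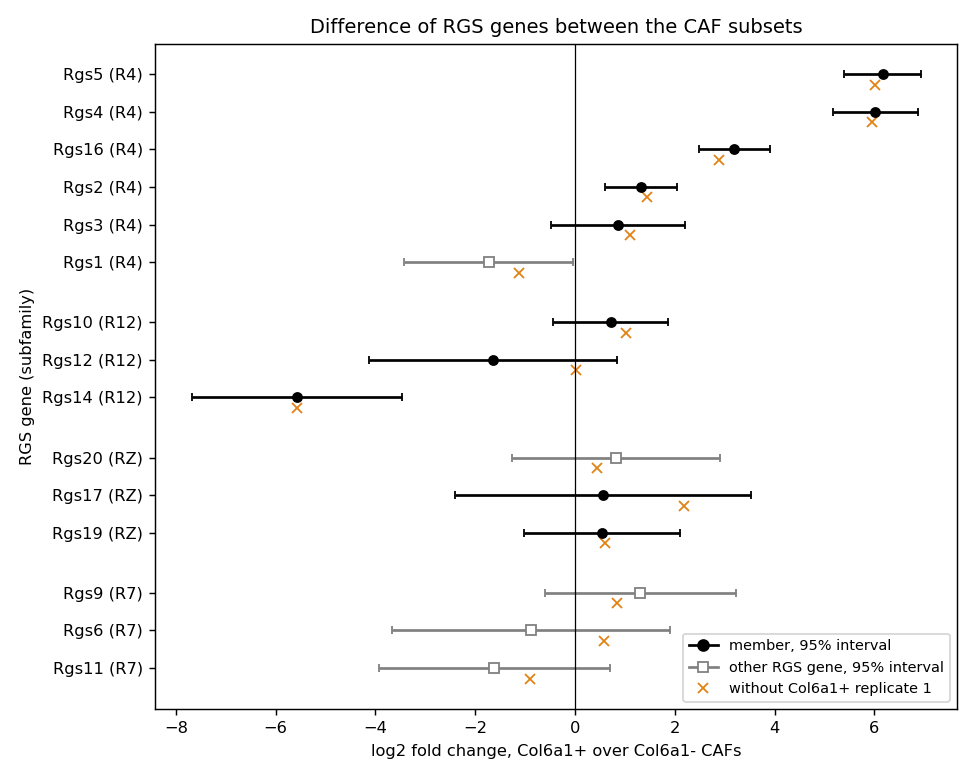
Log2 fold change of Col6a1+ over Col6a1- CAFs for the 10 members (filled circles) and the 5 other RGS genes above 5 counts in any library (open squares), grouped by subfamily, with 95% intervals from limma. Crosses give the value without replicate 1 of the Col6a1+ CAFs, which moves Rgs12, Rgs17 and Rgs6 most. The fitted values of Rgs14 and Rgs20, with 1 group at or under 3 counts, depend on the pseudocount of 1. Those of Rgs17, Rgs6 and Rgs11, each with 1 library at 0, depend on it as well. For Rgs17 the value went from 0.56 to -0.35 with a pseudocount of 0.1.

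The other 12 RGS genes of the list were low or at 0. Rgs21, Rgs22 and Rgsl1 were at 0 in every library, and Rgs7, Rgs8, Rgs13 and Rgs18 did not exceed 5 counts in any. Rgs1, an R4 regulator known from lymphocytes, was at 4, 17 and 16 normalised counts in Col6a1+ CAFs and at 40, 56 and 23 in Col6a1- CAFs. Its groups did not overlap, but its log2 fold change of -1.73 (SE 0.76) had an adjusted p of 0.295 and was -1.13 without replicate 1 of the Col6a1+ CAFs. The R7 gene Rgs9 was at 33, 9 and 16 against 5, 8 and 6, and its log2 fold change was 1.31 (SE 0.86), or 0.85 without that library. Rgs6 was at 0, 25 and 15 against 8, 10 and 25, and its log2 fold change of -0.88 became 0.57 without replicate 1 of the Col6a1+ CAFs. Rgs11 was at 0, 4 and 3 against 5, 5 and 15, and Rgs20, which overlaps a pseudogene on its strand, at 10, 3 and 5 against 3, 2 and 3. Of the 9 tested, 0 passed the limma test or limma-voom, and 1 (Rgs1) had an unadjusted p under 0.05. Their median log2 fold change was -0.67, beside -0.27 for all genes.

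The G-protein pathway lists that follow were chosen with earlier results of these data known. Over all genes tested 2.66% passed as higher in Col6a1+ CAFs and 1.96% as lower. The targets of RGS proteins are the G alpha subunits. Among the 16 of them, Gnai2, a Gi subunit of most cells, was higher in Col6a1+ CAFs, at 1827, 1360 and 2604 normalised counts against 751, 758 and 669. All Col6a1+ libraries were above all Col6a1- libraries, and the log2 fold change was 1.36 (SE 0.30, limma adjusted p = 0.0285). The other G alpha genes did not pass the test, and they include the rest of the Gi class, with log2 fold changes of 0.76 for Gnai1, 0.04 for Gnai3 and 2.10 for Gnao1. The Gq class, a main target of the R4 proteins, had log2 fold changes of -0.03 for Gnaq (adjusted p = 0.982), 0.48 for Gna11 and -1.09 for Gna14. Gnas and Gnal of the Gs class had 0.79 and -2.31 (-1.20 without replicate 1 of the Col6a1+ CAFs), and Gna12 and Gna13 had 0.96 and 1.33 (adjusted p = 0.0752 for Gna13). The median over the 16 was 0.19.

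Of the 16 tested G beta and gamma genes, whose products form the dimer released with the active subunit, 3 were higher in Col6a1+ CAFs and 0 lower. Over all genes tested 2.66% were higher and 1.96% lower. Gng11 was at 753, 488 and 789 normalised counts against 69, 43 and 16, a log2 fold change of 4.15 (SE 0.50, limma adjusted p = 0.00191). Gnb4 was at 178, 257 and 417 against 24, 30 and 30 (log2 fold change 3.22, adjusted p = 0.00252), and Gng2 at 70, 96 and 124 against 15, 15 and 21 (2.42, adjusted p = 0.0220). In all 3 genes the groups were far apart. Gnb5, named after its values were seen because R7 proteins need it, was at 1, 139 and 121 against 227, 181 and 159, and its log2 fold change of -2.53 (adjusted p = 0.382) was -0.52 without replicate 1 of the Col6a1+ CAFs.

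Among all genes tested, 2.66% passed as higher and 1.96% as lower, shares that stand beside each count of this paragraph. Proteins that anchor or assist RGS and G alpha proteins gave 1 of 10 higher. This was Rgs7bp, which tethers R7 proteins with Gnb5 to the plasma membrane. It was at 99, 439 and 579 normalised counts in Col6a1+ CAFs and at 2, 4 and 6 in Col6a1- CAFs. Its log2 fold change was 5.96 (SE 0.72, limma adjusted p = 0.00191), close in size to those of Rgs5 and Rgs4, while its R7 partners Rgs6, Rgs7, Rgs9 and Rgs11 did not exceed 33 counts in any library. Among the 15 proteins with an RGS domain outside the family, Grk5, a kinase that turns off active receptors, was higher (399, 281 and 202 against 69, 86 and 52, log2 fold change 2.05, adjusted p = 0.0139). Axin2, a Wnt target gene and part of the complex that destroys beta-catenin, was lower, at 73, 29 and 25 against 925, 324 and 733 (log2 fold change -3.97, adjusted p = 0.00232), on the same side as the epithelial markers, whose part was not tested. Of the 16 effectors tested, the adenylyl cyclase Adcy3 was higher (85, 264 and 265 against 5, 17 and 26, log2 fold change 3.67, adjusted p = 0.0130). Adcy1, a further cyclase named after its values were seen, went the other way, at 1, 13 and 24 against 87, 60 and 195. Its log2 fold change of -3.52 did not pass in limma (adjusted p = 0.0588) but passed as lower with limma-voom. The median over the 16 effectors was -0.25.

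Of the 17 receptors tested, which couple to the Gi, Gq or G12 and G13 classes in vessels, 5 were higher in Col6a1+ CAFs and 0 lower, beside 2.66% and 1.96% of all genes tested. The endothelin receptors were among them, with Ednrb at 478, 656 and 588 normalised counts against 22, 16 and 21 (log2 fold change 4.80, SE 0.36, limma adjusted p = 2.41e-04) and Ednra at 1825, 1276 and 1357 against 112, 137 and 62 (3.88, SE 0.35, adjusted p = 5.87e-04). The sphingosine-1-phosphate receptor S1pr3 was at 68, 48 and 65 against 0, 4 and 0 (adjusted p = 0.0134). The vasopressin receptor Avpr1a had a log2 fold change of 3.03 (adjusted p = 0.0177) and the thrombin receptor F2r of 1.89 (adjusted p = 0.0105). RGS4, RGS5 and RGS16 are known to be degraded through their N-terminal cysteine, and of 8 genes of that N-degron pathway 0 passed the limma test, 1 had an unadjusted p under 0.05 and 1 passed limma-voom (Metap2 in both cases, named after its values were seen, with a log2 fold change of -1.03 and an adjusted p of 0.0759 in limma).

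Over all 7 lists, 12 of 98 genes tested were higher in Col6a1+ CAFs and 1 lower, beside 2.66% and 1.96% of all genes tested, with a median log2 fold change of 0.32 beside -0.27 for all genes. With the replicate number as a block 0 of the 13 passed, at adjusted p of 0.0612 to 0.114, and 29 of the 98 had an unadjusted p under 0.05. With the block and a mean of at least 10 counts all 13 passed. Without replicate 1 of the Col6a1- CAFs Ednrb alone of the 13 passed, and without replicate 3 of them Ednra, Ednrb and Gng11. Between 7 and 10 of the 13 passed when any other library was left out.

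**Figure D3:**
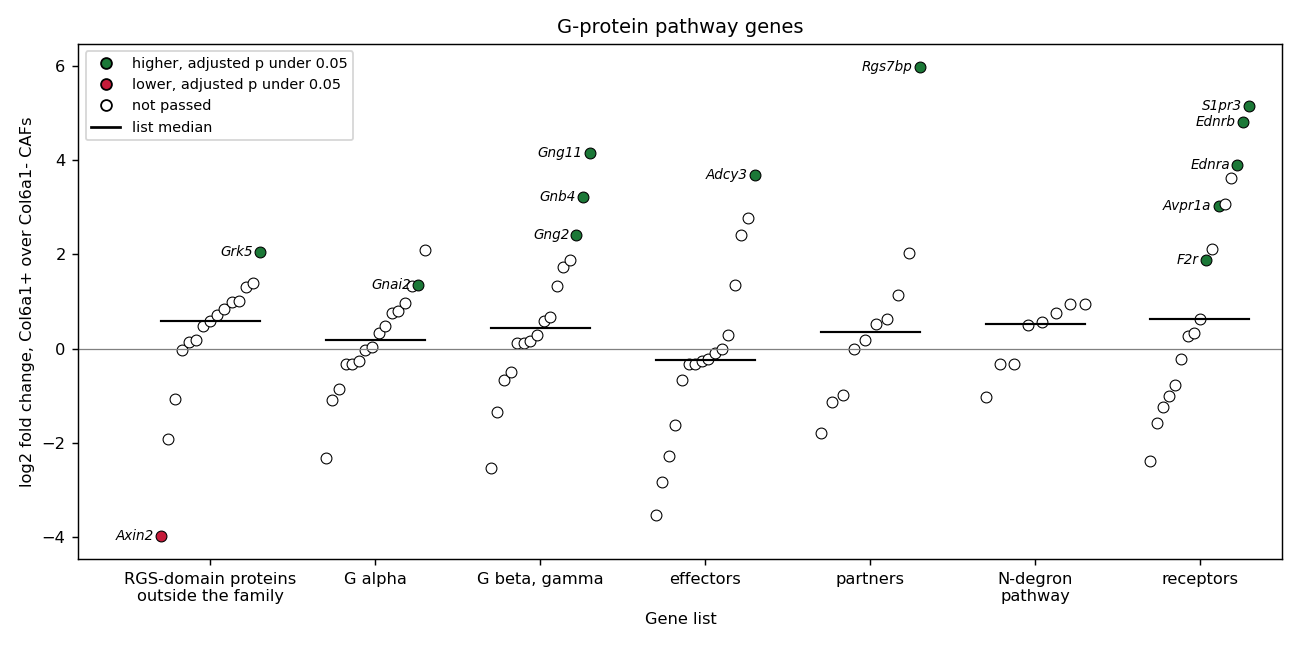
Log2 fold change of Col6a1+ over Col6a1- CAFs for each tested gene of 7 G-protein pathway lists, with lines at the list medians. Filled points passed the limma test at an adjusted p under 0.05, 12 higher (green) and 1 lower (red), and open points did not.

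The genes with the profile most like that of Rgs5 were sought among 13515 genes with a mean of at least 10 counts, by the Euclidean distance between log2 values over the 6 libraries after centring. The nearest non-RGS gene was Cspg4, the NG2 proteoglycan of pericytes, at a distance of 0.585, followed by Gja4, a connexin of vessels, at 0.876, Art3 at 0.901, H2-M9 at 1.16 and Enpep, an aminopeptidase that cleaves angiotensin, at 1.16. Rgs4 was at 1.17 from Rgs5. For Rgs4 the nearest were Cspg4 at 0.662, H2-M9 at 0.887, Notch3, a receptor of mural cells, at 0.923, Art3 at 1.01 and Ephx3 at 1.16. Art3, H2-M9 and Enpep were at 0 to 2 counts in the Col6a1- libraries, so their distances and ranks depend on the pseudocount of 1. These distances rest on 6 libraries in 2 groups and are a description.

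**Figure D4:**
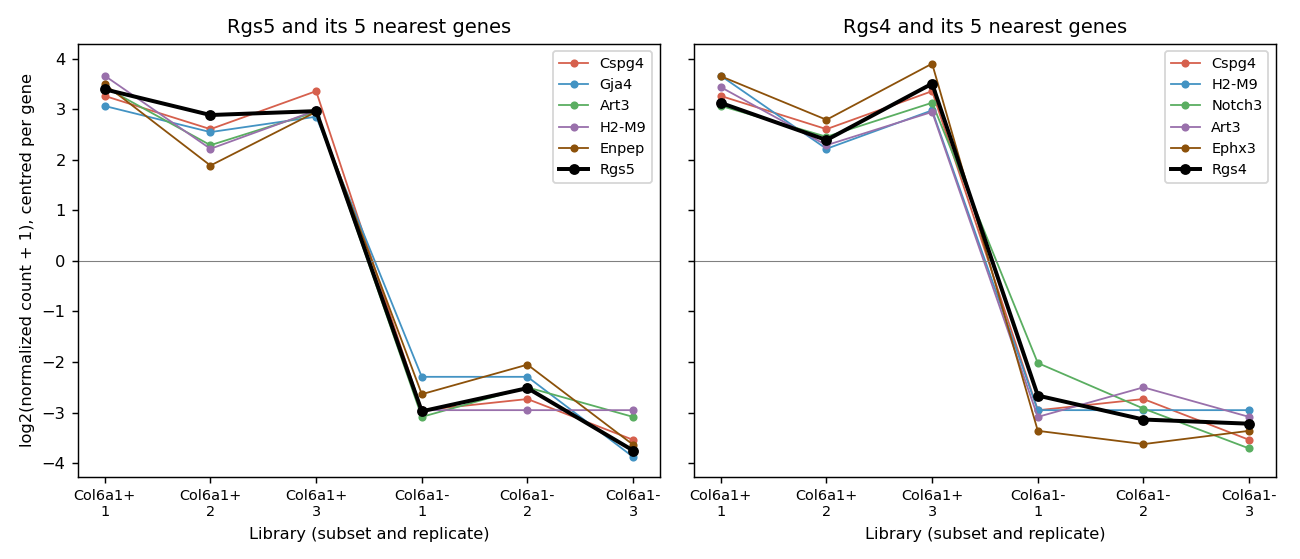
Centred log2 values over the 6 libraries for Rgs5 and Rgs4, each with the 5 non-RGS genes nearest to it by Euclidean distance. All lines are high in the 3 Col6a1+ libraries and low in the 3 Col6a1- libraries.

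The ratio of Rgs5 to pericyte markers was taken within each library, for the 6 of the 9 markers above 3 counts in every library. The groups overlapped for 4 of these ratios (Cspg4, Notch3, Abcc9 and Mcam), and the ratio was higher in Col6a1+ CAFs for 2 (Pdgfrb and Kcnj8, a potassium channel). For Mcam the overlap came from replicate 1 of the Col6a1+ CAFs, at 1.09 against 5.55 and 5.15 in replicates 2 and 3. For Abcc9 it came from replicate 3 of the Col6a1- CAFs, at 33.0 with only 9 counts of Abcc9. Cspg4 was the gene nearest to Rgs5 over the same libraries, so its like ratio followed from that choice. There were 31.5, 34.9 and 21.9 counts of Rgs5 per count of Cspg4 in the Col6a1+ libraries and 29.9, 35.0 and 27.0 in the Col6a1- libraries. Per count of Pdgfrb, the platelet-derived growth factor receptor of mural cells and fibroblasts, there were 20.2, 22.3 and 19.4 counts of Rgs5 in the Col6a1+ libraries and 4.43, 7.87 and 5.12 in the Col6a1- libraries, which did not overlap. The sum of the 9 pericyte markers was carried in replicate 1 of the Col6a1+ CAFs by Mcam, at 38662 counts against 5341 and 6072 in the other 2, while Rgs5 was 42173 against 29648 and 31282. The part of the number of pericytes in the level of Rgs5 was not tested.

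**Figure D5:**
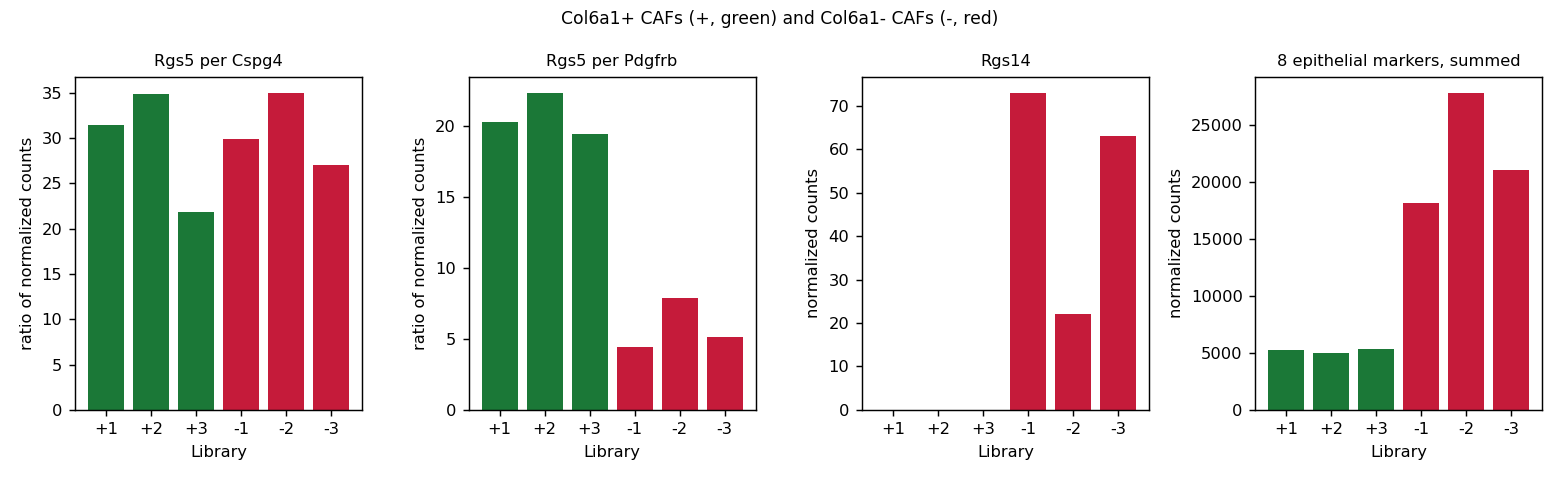
Bars, 1 per library, from left to right for the ratio of Rgs5 to Cspg4 counts, the ratio of Rgs5 to Pdgfrb counts, the normalised counts of Rgs14 and the summed normalised counts of 8 epithelial markers, with Col6a1+ libraries in green and Col6a1- libraries in red. The groups overlap for Cspg4 and are separate for Pdgfrb, and Rgs14 is at 0 in the 3 Col6a1+ libraries and at 22 to 73 in the 3 Col6a1- libraries.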

How the data were processed

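The authors mapped 3′ mRNA sequencing reads with TopHat2 and, for unmapped reads, Bowtie2 to mm10, counted reads per gene with GenomicRanges and normalised them with DESeq through metaseqR. They deposited the log2 of the normalised count plus 1, and 100% of the values were whole normalised counts within 0.01. Whether counting used strand is not given in the sources used here. The authors' columns of fold changes, p-values and false discovery rates, and 6 further columns of per-sample values, were not used, and the homeostatic libraries were not analysed here.

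The labels gave each library's group and replicate number. The log2 values were fitted in limma 3.58.1 (R 4.3.3) over the 26402 genes with at least 1 normalised count, with moderated variances that follow the mean, no block and Benjamini-Hochberg adjustment, and a gene passed at an adjusted p under 0.05. The test was checked on simulated data. A floor of 3 counts per library gave lower bounds of folds and covers counting error only. Deviations of same-numbered libraries had correlations of 0.245, 0.125 and 0.144 over 13515 genes, against -0.245 to 0.150 for libraries with different numbers. The highest of the latter (Col6a1+ replicate 2 with Col6a1- replicate 3) exceeded those of replicates 2 and 3, so a pairing by number was not established. The fit was repeated with the number as a block, which removed all calls unless a mean of at least 10 counts was required. Its values are given for single genes or as counts and ranges over lists.

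The members and gene lists were chosen with earlier results of these data known. Named were the members, the other RGS genes, Col6a1, pathway genes that passed (at most 8 per list), the G alpha genes with a mean of at least 10 counts, genes within 500 kb of Rgs5 or Rgs2, and the 5 genes nearest to Rgs5 and Rgs4. Coordinates of all 10 members were the same in GENCODE M21. Promoters are from RefSeq. Alternatives were library size scaling, a mean of at least 10 counts or 10 in every library, a pseudocount of 0.1, limma-voom, the block with and without the mean filter, and leaving out each library. Tables were made with Python 3.11.15 and pandas 2.3.3, and plots with Matplotlib 3.10.9.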

Additional observations from a re-analysis of the deposited data

How the results depend on the processing

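Of 127 values of the members under the alternatives, 125 moved by less than the spread between libraries and no value that passed changed sign, while those of Rgs12 and Rgs17, which did not pass, did so without single libraries, and that of Rgs17 also with a pseudocount of 0.1 (-0.35). Rgs14 moved to a log2 fold change of -8.87 with a pseudocount of 0.1 and to -6.60 with limma-voom. Over all genes 1220 passed, against 0 with the replicate number as a block (smallest adjusted p 0.0612, with 4418 genes at an unadjusted p under 0.05), 1852 with the block and a mean of at least 10 counts, and 12 to 895 when each library was left out, the fewest without replicate 1 of the Col6a1- CAFs. Members passing as higher fell from 4 to 0 with the block and to between 2 and 3 without single libraries. Rgs2 was also lost with library size scaling and with a pseudocount of 0.1. Nothing is read from which members passed or were lost. Rgs14, the member passing as lower, gave 0 with the block, 0 where 10 counts in every library were required, which it could not meet, and 0 to 1 without single libraries. Pathway genes passing as higher went from 12 to 0 with the block and to between 1 and 9 without single libraries. Those passing as lower went from 1 to 2 with library size scaling, a mean of at least 10 or 10 in every library, to 3 with limma-voom or with the block and a mean of at least 10, to 0 with the block, and to 0 to 1 without single libraries. With limma-voom 804 genes were higher and 1006 lower (44.4% higher), against 703 and 517 (57.6%). Why the counts moved was not tested. At means of 12.3 to 78.8 counts, Rgs3, Rgs10, Rgs12, Rgs17 and Rgs19 had standard errors of 0.52 to 1.34. Differences of this size, and also differences of several standard errors, could have been missed. The part of depth in these errors was not tested, and for Rgs12 they include 1 library at 2 counts.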

Other observations

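The genes around Rgs5 and Rgs2 were compared with them, since both lie among other RGS genes. Within 500 kb of the start of Rgs5 there were 13 genes. Of the 6 tested that were not RGS genes, 1 passed as higher in Col6a1+ CAFs, beside 2.66% of all genes tested. This was Ddr2, a collagen receptor, at 453, 632 and 648 normalised counts against 59, 121 and 63, with a log2 fold change of 2.88 (SE 0.37, limma adjusted p = 0.00231, but 0.0612 when the replicate number was a block). With the block and a mean of at least 10 counts its limma adjusted p was 0.00195. The median of the 6 was 0.98. Within 500 kb of Rgs2 0 of the 9 tested genes that were not RGS genes passed the limma test, 1 had an unadjusted p under 0.05 and 1 passed limma-voom, and their median was -0.48. The gene of the 9 with an unadjusted p under 0.05 was the galactosyltransferase B3galt2, at 0 in the 3 Col6a1+ libraries and at 8, 9 and 3 normalised counts in the Col6a1- libraries.

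The remaining marker lists describe what else the sorted cells held beside the RGS genes. The 7 endothelial markers summed to 72 to 171 in Col6a1+ and 133 to 318 in Col6a1- CAFs, and erythroid markers to 68 to 946 and 149 to 312. Glial and neuronal markers summed to 185 to 286 and 38 to 88. Of 6 tested 1, the tubulin gene Tubb3, was higher in Col6a1+ CAFs, beside 2.66% of all genes tested.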
